A study of Gallus gallus with 21 samples.

Results

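Crystallins are the abundant soluble proteins of the eye lens, and several of them are also transcribed in the retina. The genes described here are the alpha, beta and gamma crystallins among 10 symbols: CRYAA, CRYAB, CRYBA1, CRYBA2, CRYBA4, CRYBB1, CRYBB2, CRYBB3, CRYGN and CRYGS. They were chosen by gene symbol and not by a rule on measured values, though earlier results of these data were known. Of them, 9 have a row among the 18631 genes of the table (CRYBA2 was not analysed here). Their RNA was measured in whole retina of wild type White Leghorn chickens reared untreated under standard light, with 7 libraries each at 1 day, 3 days and 6 days of a time course that the labels start at postnatal day 3, which puts the retinas at postnatal day 4, 6 or 9 when taken. The series serves as the untreated arm for work on how the eye compensates for defocus imposed by a lens in front of it, and none of the libraries used here comes from a bird that wore one. The labels do not say whether each library came from a different bird, so p-values measure the spread between these libraries.

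Alpha crystallins are small heat shock proteins that bind unfolding proteins and keep them soluble. Beta and gamma crystallins share a fold of paired Greek key motifs and pack densely in lens fibre cells, where they give the lens its refractive power. In birds the most abundant lens crystallin is delta crystallin, encoded by ASL1, a relative of the enzyme argininosuccinate lyase. Outside the lens, CRYAB is made in glia and pigment epithelium of the mammalian retina, and CRYBB2 has been tied to axon growth of retinal ganglion cells in rats.

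The unit is CPM, a gene's reads relative to the size of its library. The smallest step between low values of a library is worth 1 read, which gives 27.7 to 41.4 megareads per library, and 3 reads correspond to 0.0724 to 0.108 CPM. The read numbers given below are estimates from these steps. CPM is not divided by transcript length, so shares of reads below are not shares of transcripts. Of 10 housekeeping genes looked up, 0 values were at 0, and no library was left out. The W-linked transcript HINTW, which only female birds carry, was above 10 CPM in 3, 4 and 6 of 7 libraries at 1, 3 and 6 days, so libraries with it were not balanced across the ages.

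The 9 crystallins fell into a group read in every library and a group at or near 0. CRYBA4, CRYGN, CRYAB, CRYBA1 and CRYBB2 were read in 21 of 21 libraries. CRYAA, CRYBB1, CRYBB3 and CRYGS were at 0 in 17, 9, 15 and 10 of the 21 libraries and never passed 0.131 CPM. A gene entered the tests if 7 or more libraries had 0.5 CPM of it. By that filter 4 of the 9 were tested, since CRYBB2 reached 0.5 CPM in 3 libraries and the other 4 did so in 0.

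The alpha crystallin CRYAB lies on chromosome 24 at 6242317 to 6246236 of the plus strand of GRCg6a, the build of all positions here. Its lowest, median and highest levels were 0.984, 1.13 and 1.98 CPM at 1 day. At 3 days they were 0.994, 1.18 and 1.496 CPM, and at 6 days they were 0.748, 1.27 and 1.69 CPM. The ranges of the 3 ages overlapped, with the highest library at 1 day and the lowest at 6 days. The gene rests on 29 to 68 reads per library. HSPB2, another small heat shock gene, overlaps it by 1748 bases on the opposite strand, and it never passed 0.0618 CPM.

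The other alpha crystallin, CRYAA, lies on chromosome 1 at 111075233 to 111078620 of the plus strand. It had 6 reads in all 21 libraries together and was at most 0.0590 CPM, below the level of 3 reads. This gene is a major alpha crystallin of lens fibres. The nearest gene, the splicing factor gene U2AF1, was at 23.2 to 34.9 CPM in the same libraries.

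Among the acidic beta crystallins, CRYBA4 took most of the reads. It lies on chromosome 15 at 7468676 to 7476182 of the plus strand. Its lowest, median and highest levels were 14.1, 16.0 and 19.3 CPM at 1 day. They were 11.01, 14.2 and 18.9 CPM at 3 days and 15.4, 17.4 and 18.3 CPM at 6 days. The 3-day libraries reached lowest, while the 3 ranges overlapped. CRYBA4 gave 79.9 ± 2.01%, 76.4 ± 3.29% and 80.2 ± 2.05% of all crystallin reads at 1, 3 and 6 days (SD, n = 7 each), and from 72.9% to 83.1% in single libraries. It rests on 427 to 722 reads per library.

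Another acidic beta crystallin, CRYBA1, lies on chromosome 19 at 6105041 to 6114865 of the plus strand. It is the lens gene whose product also works in astrocytes and pigment epithelium of rodents. The lowest, median and highest levels were 0.887, 1.01 and 1.48 CPM at 1 day. At 3 days they were 0.879, 1.17 and 1.80 CPM, and at 6 days 0.657, 0.826 and 1.43 CPM. The highest library was one of 3 days and the lowest one of 6 days, and the ranges overlapped. MYO18A, an unconventional myosin gene, overlaps CRYBA1 by 1747 bases on the opposite strand. It was at 1.52 to 4.28 CPM, and how strand was used in counting is not given in the sources used here. Over the 21 libraries, the deviations of CRYBA1 and MYO18A from their age means had a Pearson r of 0.09 (permutation p = 0.741) and a Spearman rho of -0.03 (p = 0.918), and r was -0.03 without the 2 libraries farthest from the median of CRYBA1.

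The basic beta crystallins lie near CRYBA4 on chromosome 15. CRYBB1, at 7465326 to 7467622 of the minus strand, points away from CRYBA4 with 1053 bases between them. CRYBB3, at 7280818 to 7282696, and CRYBB2, at 7284611 to 7286815, stand in a row on the plus strand with 1914 bases between them. Between CRYBB2 and CRYBA4 lie 181860 bases. Adjacent members of these pairs had very different read numbers: CRYBA4 had 12095 reads over the 21 libraries and CRYBB1 had 23, while CRYBB2 had 309 and CRYBB3 had 6.

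CRYBB2 had lowest, median and highest levels of 0.322, 0.465 and 1.03 CPM at 1 day. At 3 days they were 0.206, 0.350 and 0.526 CPM, and at 6 days 0.141, 0.340 and 0.490 CPM. The ranges overlapped, and the highest value, in the 1-day library C22L, stood well above the 3-day and 6-day libraries. These levels rest on 5 to 36 reads per library. CRYBB1 was at most 0.116 CPM and CRYBB3 at most 0.0318 CPM, or 4 reads and 1 read in a library.

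Of the gamma crystallins, CRYGN, a gene whose protein combines features of the beta and gamma families, lies on chromosome 2 at 6325393 to 6363266 of the minus strand. Its lowest, median and highest levels were 0.979, 1.06 and 1.54 CPM at 1 day. They were 0.978, 1.52 and 2.24 CPM at 3 days and 1.00, 1.52 and 2.71 CPM at 6 days. The lowest libraries were alike at the 3 ages and the highest lay further up at 3 and 6 days, with ranges that overlapped. CRYGS, on chromosome 9 at 4516570 to 4520369 of the minus strand, is expressed in lens fibres and was at most 0.131 CPM, or 5 reads.

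The CRYGN values share reads with another gene. RHEB, which encodes a small GTPase that activates mTOR, lies inside the CRYGN span on the same strand, at 6331550 to 6362990. Estimated reads of CRYGN were whole, within 0.1 read, in 6 of 21 libraries and those of RHEB in 7, while their sum was whole in 21. The other 8 crystallins were whole in 21 of 21. CRYGN took 5.03% to 13.9% of the sum, so its level depends on how reads were divided between the pair and is uncertain. The deviations of the pair had a Pearson r of -0.27 (permutation p = 0.321) and a Spearman rho of -0.31 (p = 0.211), with r = -0.30 without the 2 farthest libraries. Adjusted over these overlapping pairs, the Pearson p was 0.642 for CRYGN with RHEB and 0.741 for CRYBA1 with MYO18A, and the Spearman p was 0.421 and 0.918.

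**Figure D1:**
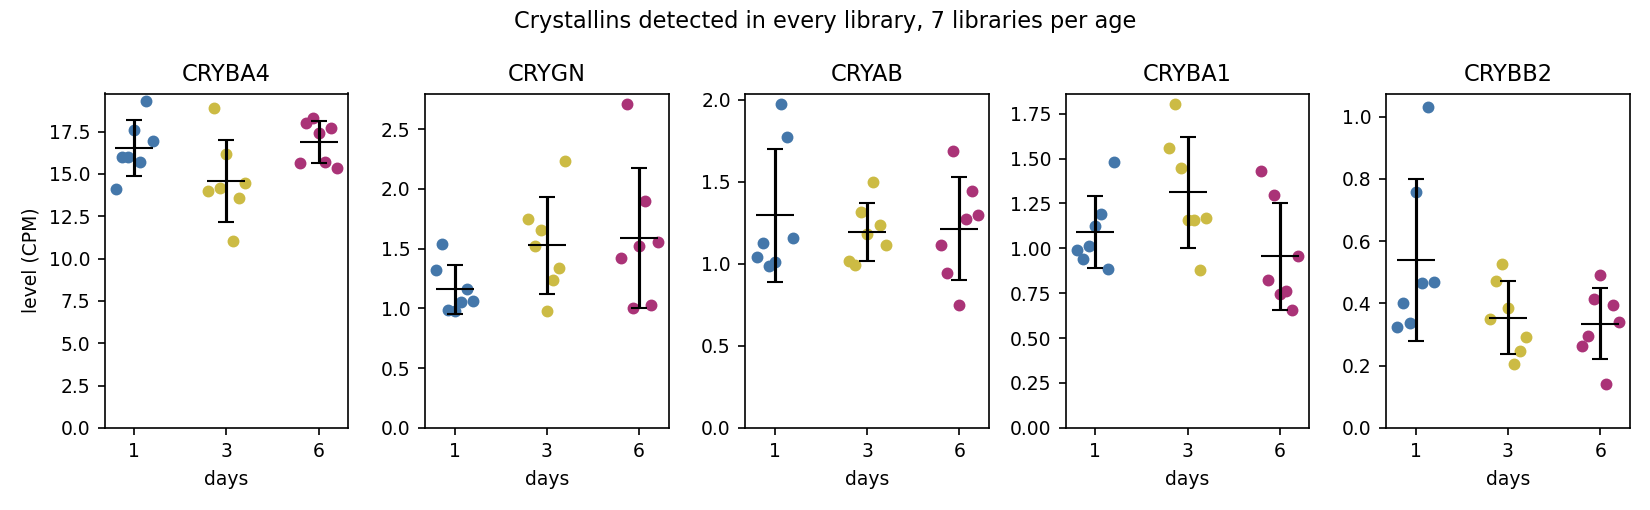
Level in CPM (vertical axes, each starting at 0) of the 5 crystallins read in every library, against age in days; points are libraries, and bars are the mean and SD of 7 libraries. CRYBA4 stays between 11.01 and 19.3 CPM, while CRYBB2 spans 0.141 to 1.03 CPM, and the ages overlap in every panel.

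Lens tissue in a retina sample would bring the defining genes of lens fibres with it, so these were read beside the crystallins. Of 13 lens genes listed, 11 were in the table and 8 of them were under the filter. ASL1, the delta crystallin gene, was at 0 in 15 of 21 libraries and reached 0.147 CPM, or 5 reads. Its reads can be divided with those of ASL2, a near copy: the sum of the pair was whole within 0.1 read in 21 libraries and each alone in 20. The sum was 1 to 9 reads per library, of which ASL1 took 0% to 62.5%, so the level of ASL1 alone is uncertain. MIP, the water channel of lens fibres, was at 0 in 18 libraries and reached 2 reads. BFSP2, a beaded filament protein of lens fibres, was at 0 in 10 libraries and reached 5 reads. GRIFIN, a lens galectin, was at 0 in 13 and reached 3 reads.

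The other lens genes under the filter were also low. LIM2, a lens fibre membrane protein, reached 8 reads, the lens gap junction gene GJA3 reached 6, the glutamine synthetase relative LGSN reached 9, and the heat shock factor HSF4 reached 10. Together the 8 genes summed to 6 to 26 reads per library. Their summed level was 0.172 to 0.571 CPM at 1 day, 0.239 to 0.680 CPM at 3 days and 0.258 to 0.470 CPM at 6 days. The 4 crystallins near 0 summed to 0 to 7 reads per library.

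Genes of the lens list that passed the filter were read in every library. BFSP1, the partner of BFSP2, was at 2.48 to 4.10 CPM, and DNASE2B, the nuclease that clears DNA from lens fibres, was at 0.826 to 1.55 CPM. The 1-day library C21R was the highest of CRYAB, at 1.98 CPM, of CRYBB1, with 4 reads, and of BFSP2, with 5 reads, while MIP, LIM2 and GJA3 were at 0 in it. Over its 11 genes in the table, the list summed to a lowest, median and highest level of 4.81, 5.27 and 6.38 CPM at 1 day. At 3 days the sums were 5.16, 6.00 and 6.30 CPM, and at 6 days 4.87, 5.65 and 6.60 CPM.

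Whether a crystallin moved with the lens list was tested over libraries. For each crystallin the deviation from its age mean was correlated with that of the mean of the lens list on the log2(CPM + 0.5) scale, in the same family of 45 relations as the 36 pairs of crystallins. Pearson r ran between -0.35 for CRYGN and 0.40 for CRYBA1, and no p, from permutation within ages, passed after Benjamini-Hochberg adjustment. The smallest was that of CRYBA1 (p = 0.0847, adjusted p = 0.813, rho = 0.30 with p = 0.215 and adjusted p = 0.981), whose r was 0.52 without the 2 farthest libraries. For CRYAB r was 0.31 (permutation p = 0.233) and became -0.19 without C21R and C59L, and for CRYBA4 it was 0.31 (p = 0.157) and became 0.07 without C33R and C42L. For CRYBB2 it was 0.18 (permutation p = 0.489) and became 0.53 without C19L and C22L, the highest of these trimmed values. The lens list mean rests in part on genes of a few reads, which limits what these relations can show. The Spearman adjusted p was 0.981 for each of the 9 crystallins.

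**Figure D2:**
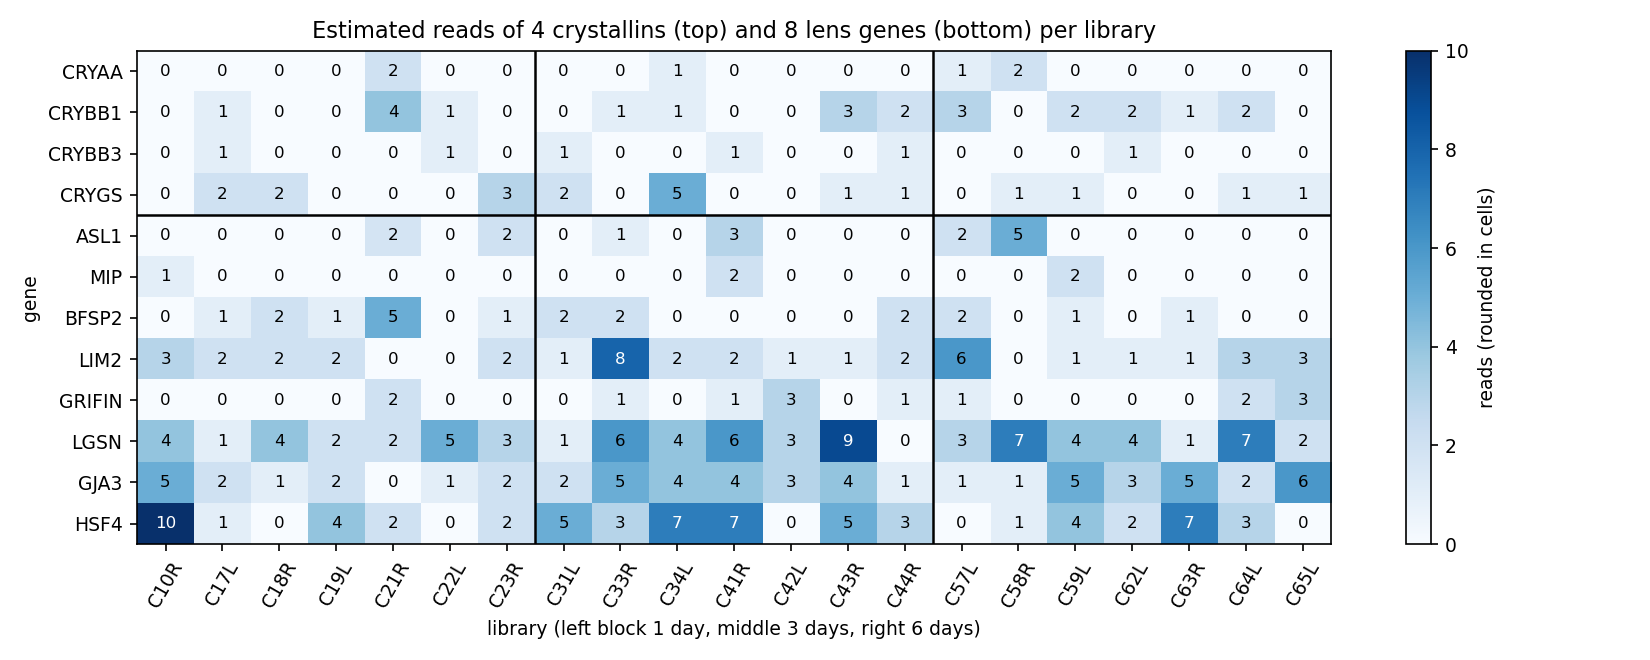
Estimated reads, rounded, of the 4 crystallins near 0 (rows above the line) and of the 8 lens genes under the filter (rows below it) in each of the 21 libraries, with 1 day at the left, 3 days in the middle and 6 days at the right; darker blue means more reads. No cell passes 10 reads, and ASL1 and MIP are at 0 in 15 and 18 libraries.

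The crystallins differed in how far libraries of 1 age spread. CRYBA4 had the smallest coefficient of variation (CV) within ages among those read in every library, 11.5%, where counting error alone gives 4.18%. Its highest library was 1.76 times its lowest. The CV was 25.3% for CRYAB, 24.5% for CRYBA1 and 29.97% for CRYGN, where counting error gives 15.1%, 15.9% and 14.0%. The highest library was 2.64, 2.75 and 2.77 times the lowest in these 3 genes. CRYBB2 had the largest CV of these 5, 43.3% against 26.2% from counting, and its highest library was 7.29 times the lowest. Relative to counting error the order was another, with a CV 2.75 times that of counting for CRYBA4, 2.14 times for CRYGN, 1.68 times for CRYAB, 1.65 times for CRYBB2 and 1.55 times for CRYBA1. For the 4 genes near 0 the CV was 0.881 to 1.34 times that of counting error, so their scatter was near what so few reads give. All these ratios are descriptions with no test, and counting error is taken as that of independent reads. Reads of CRYGN were divided with RHEB, so its CV and ratio are as uncertain as its level. At a given CV the ratio grows with read number, which averaged 576 for CRYBA4 and 14.7 for CRYBB2.

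Against all 12614 genes tested, the SD of CRYBA4 within ages, 0.17 on the log2(CPM + 0.5) scale, was above that of 41.8% of genes and below the median SD of 0.185. The SD was 0.25 for CRYAB, 0.24 for CRYBA1 and 0.29 for CRYGN, above that of 74.8%, 71.3% and 85.4% of genes. These shares compare genes of different read numbers. Counting error widens the SD of genes of few reads, while the pseudocount of 0.5 CPM shrinks that of genes near or below it. For CRYBB2, which was under the filter, the SD on this scale was 0.25, below that of CRYGN. CRYBA4 thus had the smallest CV and SD of the 5 crystallins read in every library. The one that spread most was CRYBB2 by CV and CRYGN by SD. For CRYGN the spread includes how its reads were divided with RHEB, and the part of that division was not tested. CRYBA4 had the largest ratio to counting error, but that ratio grows with read number and so does not rank their spread. C22L, the highest library of CRYBB2, had 6 reads over the 8 low lens genes, the fewest of the 21 libraries. C33R, the highest library of CRYBA1 at 1.80 CPM, had 26, the most, and its lens reads were not tested as a source of that value. C41R and C10R had nearly as many, 25 and 23. Their CRYBA1 levels were 1.16 and 0.992 CPM, below the means of their ages.

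**Figure D3:**
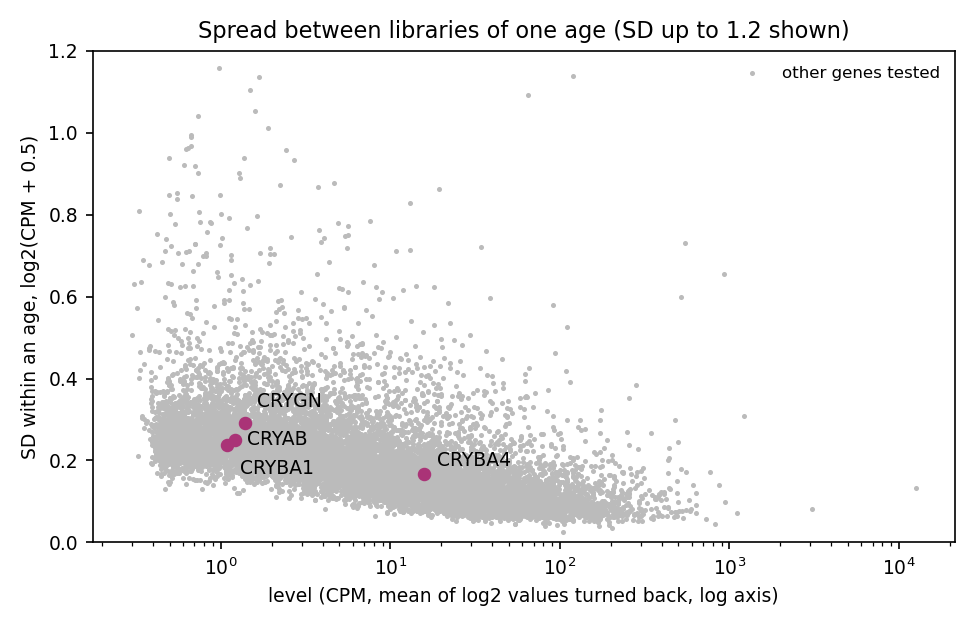
SD of log2(CPM + 0.5) between libraries of 1 age (vertical axis) against level in CPM (log axis) for the genes tested, in grey, and for the 4 crystallins tested, in purple; genes with a larger SD than the axis shows are left out of the picture. CRYBA4 lies at an SD of 0.17, and CRYAB, CRYBA1 and CRYGN lie higher at 0.25, 0.24 and 0.29.

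The comparisons of ages ask how retinal transcripts change over the first days after hatching in eyes without defocus. Between 6 days and 1 day, 0 of the 4 tested crystallins passed limma's test at a Benjamini-Hochberg adjusted p of 0.05, where 32.5% of all genes tested did, and 0 had an unadjusted p below 0.05. CRYBA4 averaged 16.9 ± 1.26 CPM at 6 days and 16.5 ± 1.65 CPM at 1 day (SD, n = 7 each). Its difference was 0.03 (SE 0.09, 95% interval -0.15 to 0.21, limma adjusted p = 0.797) in log2(CPM + 0.5), the scale of all differences below, and it turned to -0.12 and -0.13 under median-of-ratios and quantile scaling. In bulk tissue, fewer cells of a type and less RNA per cell cannot be told apart.

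CRYGN averaged 1.59 ± 0.584 CPM at 6 days and 1.16 ± 0.205 CPM at 1 day. The difference was 0.30 (SE 0.15, interval -0.01 to 0.61, limma adjusted p = 0.129), with 5 of 7 libraries of 6 days above the 1-day mean. It was 0.19 under median-of-ratios and under quantile scaling, and 0.19 without the 6-day library C58R. CRYAB differed by -0.06 (interval -0.33 to 0.22, limma adjusted p = 0.760) and CRYBA1 by -0.14 (interval -0.41 to 0.12, limma adjusted p = 0.413). Under median-of-ratios and quantile scaling CRYAB differed by -0.17 and -0.15 and CRYBA1 by -0.24 and -0.23, none past the threshold, and CRYBA1 moved to between -0.21 and -0.09 with single libraries left out. CRYBB2 was tested only in a fit with no filter on low values. It averaged 0.334 ± 0.114 CPM at 6 days and 0.540 ± 0.260 CPM at 1 day and differed by -0.30 (interval -0.56 to -0.03, limma adjusted p = 0.109). In that fit 7 of 7 libraries of 6 days lay below the 1-day mean, and 0 of 9 crystallins passed. That mean was raised by C22L and C19L, at 1.03 and 0.757 CPM of CRYBB2. The other 1-day libraries were at 0.322 to 0.469 CPM and lay below it too.

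Between 3 days and 1 day, 0 of 4 crystallins passed, beside 10.1% of all genes, and 1, CRYBA4, had an unadjusted p below 0.05. CRYBA4 averaged 14.6 ± 2.42 CPM at 3 days and 16.5 ± 1.65 CPM at 1 day. It differed by -0.18 (SE 0.09, interval -0.36 to 0.00, limma adjusted p = 0.176), with 6 of 7 libraries of 3 days below the 1-day mean. Under median-of-ratios scaling the difference was -0.26 with an adjusted p of 0.0243, and under quantile normalization it was -0.24 with an adjusted p of 0.0470, past the threshold in both. It was -0.12 without C42L and -0.08 in the libraries above 10 CPM of HINTW. CRYGN differed by 0.28 (limma adjusted p = 0.243), CRYBA1 by 0.18 (adjusted p = 0.385) and CRYAB by -0.06 (adjusted p = 0.804). Under quantile normalization these were 0.17, 0.07 and -0.17, and without C33R that of CRYBA1 was 0.12. CRYBB2 differed by -0.26 with no filter (limma adjusted p = 0.241).

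Between 6 and 3 days, 0 of 4 passed, beside 22.3% of all genes, and 2 had an unadjusted p below 0.05. CRYBA4 averaged 16.9 ± 1.26 CPM at 6 days and 14.6 ± 2.42 CPM at 3 days. Its difference was 0.21 (SE 0.09, interval 0.04 to 0.39, limma adjusted p = 0.0752), and 7 of 7 libraries of 6 days were above the 3-day mean. It was 0.15 under median-of-ratios scaling, 0.11 under quantile normalization and 0.11 in the libraries above 10 CPM of HINTW. CRYBA1 averaged 0.955 ± 0.298 CPM at 6 days and 1.31 ± 0.310 CPM at 3 days, a difference of -0.32 (SE 0.13, interval -0.59 to -0.06, limma adjusted p = 0.0746).

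Both genes crossed the threshold under some settings of the comparison of 6 with 3 days. Without the 3-day library C33R, CRYBA4 differed by 0.28 (limma adjusted p = 0.0144). Without the 3-day library C43R or the 6-day libraries C57L or C59L, CRYBA1 differed by -0.38, -0.39 and -0.38 (adjusted p = 0.0406, 0.0308 and 0.0441). It also passed under median-of-ratios scaling and with the HINTW level as a covariate, at -0.37 in each (adjusted p = 0.0440 and 0.0490). CRYAB and CRYGN differed by 0.00 and 0.02 between 6 and 3 days (limma adjusted p = 0.992 and 0.934).

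In the test for any difference between the 3 ages, 0 of 4 crystallins passed, beside 38.6% of all genes, and 1 had an unadjusted p below 0.05 (CRYBA4, limma adjusted p = 0.0900). CRYBA4 passed it without C33R (adjusted p = 0.0141) and under median-of-ratios scaling (adjusted p = 0.0283), and CRYBA1 passed it without C57L (adjusted p = 0.0486). The 4 crystallins near 0 had differences between -0.05 and 0.04 in the fit with no filter, a scale on which values near 0 can barely move. Summed over the 9 genes, the crystallin level was 20.7 ± 2.01, 19.1 ± 2.61 and 21.04 ± 1.37 CPM at 1, 3 and 6 days (SD, n = 7 each).

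The scaling of the libraries bears on these values. As deposited, the median difference of all genes tested was 0.14 between 6 days and 1 day and 0.07 in the other comparisons, while that of the 4 crystallins was -0.01 between 6 days and 1 day, 0.06 between 3 days and 1 day and 0.01 between 6 and 3 days. Between 6 days and 1 day 3779 genes rose and 324 fell as deposited, against 1058 that rose and 1069 that fell under median-of-ratios scaling. Between 3 days and 1 day the counts were 972 and 307 as deposited, against 531 and 751. Between 6 and 3 days they were 2191 and 622 as deposited, against 1193 and 1004. The share of a library's total reads held by the genes in the table also differed by age. It was 29.9% to 31.9% at 1 day and 32.9% to 34.2% at 6 days, ranges that did not overlap. Its part in the counts as deposited was not tested.

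**Figure D4:**
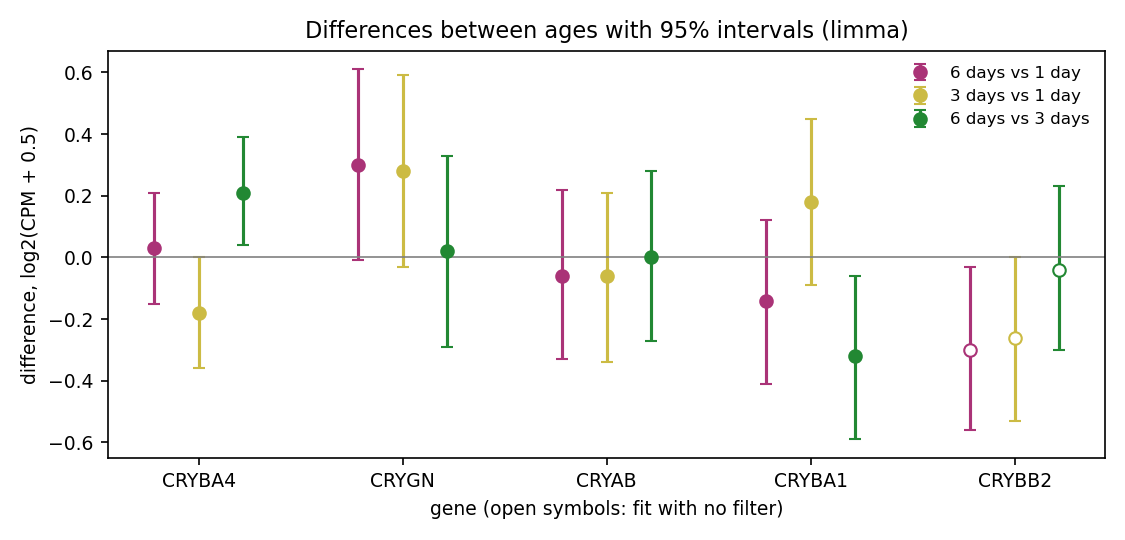
Difference between ages in log2(CPM + 0.5) with its 95% interval from limma (vertical axis) for CRYBA4, CRYGN, CRYAB, CRYBA1 and CRYBB2; colours are the 3 comparisons, and open symbols are from the fit with no filter. CRYBA4 lies at 0.21 and CRYBA1 at -0.32 between 6 and 3 days, neither past the adjusted threshold.

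CRYBA4 and CRYBB2 moved together over libraries. Their deviations from the age means had a Pearson r of 0.68 (permutation p = 0.00024, adjusted p = 0.0108 over 45 relations) and a Spearman rho of 0.74 (p = 0.0003, adjusted p = 0.0135), and r was 0.73 without C33R and C42L. This was 1 of 45 relations that passed, and 1 of 45 had an unadjusted p below 0.05. Within ages r was 0.90 at 1 day (exact permutation p = 0.00258, adjusted p = 0.00774 over the 3 ages), 0.70 at 3 days (exact p = 0.0700, adjusted p = 0.105) and 0.59 at 6 days (exact p = 0.153), with 7 libraries each. The rho within ages was 0.89 (exact permutation p = 0.0123), 0.71 (p = 0.0881) and 0.43 (p = 0.354) at 1, 3 and 6 days. Without C22L, the highest library of both genes, r was 0.63 (permutation p = 0.00201), and without C42L, the lowest of CRYBA4, it was 0.67 (p = 0.00125), and in both cases 0 of 45 relations passed.

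The relation moved with the scaling of the libraries. It was 0.63 (permutation p = 0.00173) under median-of-ratios scaling and 0.59 (p = 0.00379) under quantile normalization, and 0 of 45 relations passed in either. The median-of-ratios factor of a library, the typical ratio of its genes to their means, spanned 0.91 to 1.07 and moved with both genes. For CRYBA4 the Pearson r with that factor was 0.73 (permutation p = 0.00208, adjusted p = 0.00832 over 4 relations), rho was 0.57 (p = 0.0101, adjusted p = 0.0203), and r was 0.73 without the 2 farthest libraries. For CRYBB2 r was 0.56 (p = 0.0124, adjusted p = 0.0248), rho was 0.62 (p = 0.00649, adjusted p = 0.0203), and r was 0.42 without them. With total reads, r was 0.01 for CRYBA4 (permutation p and adjusted p = 0.975) and 0.03 for CRYBB2 (permutation p = 0.912), with rho at 0.20 (p = 0.415) and 0.12 (p = 0.615). CRYBB1, which lies next to CRYBA4, had an r of 0.02 with it (permutation p = 0.940), and CRYBB3, next to CRYBB2, an r of 0.31 with that gene (p = 0.201), both from few reads, with rho at 0.05 (p = 0.833) and 0.21 (p = 0.374).

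**Figure D5:**
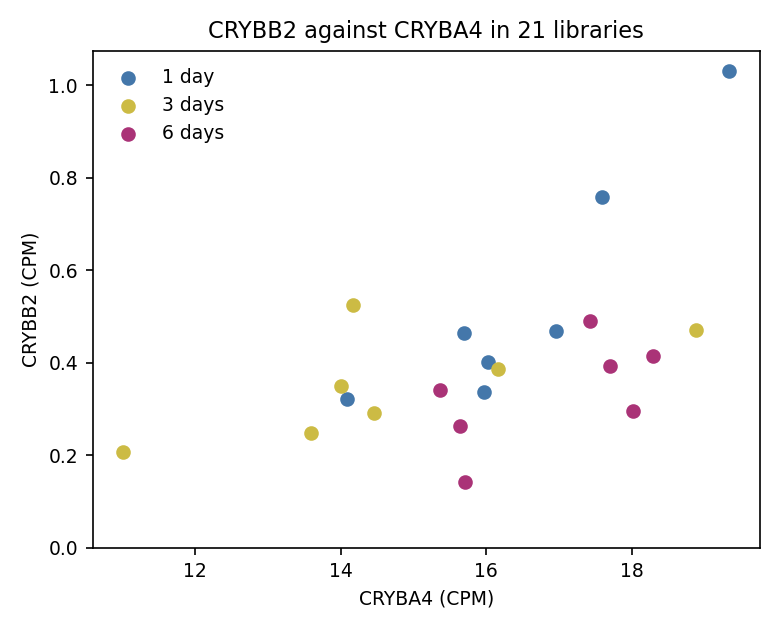
CRYBB2 level in CPM (vertical axis) against CRYBA4 level in CPM (horizontal axis) in 21 libraries, coloured by age. The 1-day library C22L is highest in both, at 1.03 and 19.3 CPM.

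As a description of likeness, each crystallin was set beside all genes tested by the Pearson r of deviations from age means over the 21 libraries. CRYBA4 was most like MKRN1 (r = 0.85), FBXO48 (0.84) and LOC101750908 (0.83). For CRYBB2 the nearest were TMEM258 (0.86), LHPP (0.80) and DIP2B (0.79). CRYBA1 was nearest to SHB (0.79), ANGEL2 (0.78) and TMEM74B (0.77), and CRYAB to IFT140 (0.76), MAD2L1 (0.74) and PIWIL1 (0.74). CRYGN had lower values, with UEVLD at 0.71, HRH3 at 0.69 and LOC107054132 at 0.68. These are the highest of 12613 or 12614 values per gene and carry no test.

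Genes next to the crystallins were read as well. GRK3, which lies 6460 bases beyond CRYBB2 and encodes a receptor kinase, averaged 54.3 CPM at 6 days and 43.6 CPM at 1 day and rose by 0.31 (SE 0.07, limma adjusted p = 0.00111). This rise was not called under median-of-ratios scaling. MYO18A averaged 3.06 CPM at 6 days and 2.09 CPM at 1 day and rose by 0.44 (SE 0.15, limma adjusted p = 0.0225), also not called under that scaling. Next to CRYBA1 on its other side, NUFIP2, which encodes an RNA-binding protein, averaged 9.07 CPM at 6 days and 6.89 CPM at 1 day and rose by 0.38 (limma adjusted p = 0.00221), a call absent under quantile normalization. RHEB averaged 17.3 CPM at 6 days and 14.9 CPM at 3 days and rose by 0.21 between them (limma adjusted p = 0.0108), a call absent under the other scalings.

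Small heat shock proteins and their regulators include the relatives of the alpha crystallins. Of 17 listed, 12 were in the table and 5 were tested, and between 6 days and 1 day 2 rose and 0 fell, with a median difference of 0.20, where 32.5% of all genes were called. BAG3, a co-chaperone that binds small heat shock proteins, averaged 11.9 CPM at 6 days and 6.75 CPM at 1 day and rose by 0.76 (SE 0.15, limma adjusted p = 0.000695). It rose under both other scalings too, by 0.62 and 0.59. HSF3, a heat shock factor of birds, rose by 0.22 (limma adjusted p = 0.0185). Under each other scaling 1 of the 5 rose and 2 fell (HSF2 and HSPB11, named after their values were seen). HSPB1, the small heat shock protein of many stressed cells, was at most 0.166 CPM.

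Transcription factors that act on crystallin genes in the lens were mostly well read. Of 23 listed, 19 were in the table and 17 were tested, and between 6 days and 1 day 5 rose and 0 fell, with a median difference of 0.14, which equals that of all genes. The 5 of 17 are near the 32.5% called over all genes. MEIS2 rose by 0.31 (limma adjusted p = 0.00180), MAFA by 0.44 (0.00728), SIX3 by 0.47 (0.00859) and TFAP2B by 0.17 (0.0177). Under median-of-ratios and quantile scaling 0 of the 17 rose or fell in that comparison, with 6 and 5 at an unadjusted p below 0.05. MAFA, a large Maf factor that activates crystallin promoters in the chick lens, averaged 11.04 CPM at 6 days and 6.52 CPM at 3 days. It rose by 0.73 between them (SE 0.12, limma adjusted p = 0.000181) and by 0.67 and 0.63 under the other scalings. PAX6, the factor needed for eye formation, was at 35.9 CPM at 6 days and 32.0 CPM at 1 day (limma adjusted p = 0.122), and PROX1, needed for lens fibre growth, was at 115.8 CPM at 6 days and 115.6 CPM at 1 day.

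Other genes with crystallin names, and enzymes recruited as lens crystallins in some species, numbered 15, of which 11 were in the table and 8 were tested. Between 6 days and 1 day 1 rose and 0 fell, with a median of 0.06, where 32.5% of all genes were called. CRYL1, an enzyme related to the lambda crystallin of rabbit lens, averaged 3.02 CPM at 6 days and 2.21 CPM at 1 day and rose by 0.38 (SE 0.11, limma adjusted p = 0.0118). Under median-of-ratios scaling that gene was not called and 1 of the 8 fell instead, LDHB, the lactate dehydrogenase that serves as epsilon crystallin in ducks, by 0.32 on the log2 scale. CRYBG3, a large protein with crystallin-like domains, averaged 133 CPM at 3 days and 120 CPM at 1 day and rose by 0.14 between them (limma adjusted p = 0.0373), a call absent under median-of-ratios scaling.

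Markers of the cells a retina sample could hold were read with the same fit, between 6 days and 1 day, where 32.5% of all genes were called. Of the lens list 0 of 3 tested genes passed (0 at an unadjusted p below 0.05, and 0 by the other scalings). Of the pigment epithelium list 1 of 6 rose, RPE65 by 0.60 (limma adjusted p = 0.0306), and 2 of 4 ciliary body genes rose, ZIC1 by 0.47 and OPTC by 0.52 (adjusted p = 0.0127 and 0.0235). Of the cornea and stroma list 1 of 2 fell, ANGPTL7, which fell by 1.66 on the log2 scale (adjusted p = 0.000895). Of the Muller glia list 1 of 9 rose, SOX9 by 0.48 (adjusted p = 0.0248), and of the photoreceptor list 7 of 8 rose, among them OPN1MSW, a cone opsin, by 0.95 (adjusted p = 0.000199). Of the endothelium and leukocyte list 0 of 4 passed, with 0 at an unadjusted p below 0.05 and 0 called by the other scalings, and its most abundant gene, KDR, was at 38.4 CPM at 6 days and 36.0 CPM at 1 day. The calls of RPE65, ZIC1 and OPTC were absent under both other scalings, where 4 of the 8 photoreceptor genes rose. The call of SOX9 was absent under median-of-ratios scaling, and WFDC1, KERA and S100B, named after their values were seen, fell under both other scalings. The part of these markers in the crystallin values was not tested.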

How the data were processed

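The authors deposited 1 table of CPM values with 1 column per library; per the submitters' processing notes STAR, Partek and the build GRCg6a were used, and per the labels' protocols libraries were stranded total RNA depleted of ribosomal RNA. Versions, annotation and the use of strand in counting are not given in the sources used here. An offset of 0.0001 CPM was subtracted. Reads were estimated from the step between low values, 94.5% to 95.7% of which were whole within 0.1 of a step; no count test was run. The genes in the table hold 29.9% to 34.2% of the total, or 8.65 to 13.8 megareads, per library. By age the share was 29.9% to 31.9% at 1 day, 30.8% to 33.3% at 3 days and 32.9% to 34.2% at 6 days. Symbols in the RefSeq gene table numbered 15419.

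Values were analysed as log2(CPM + 0.5), a scale that understates changes of low genes, with limma 3.58.1 in R 4.3.3, 1 mean per age, a mean-variance trend and Benjamini-Hochberg adjustment over 12614 genes, two-sided. Genes were kept at 0.5 CPM in 7 libraries. Correlations used 100000 permutations within ages, two-sided. Fits were tested on simulated data. Named genes are the crystallins, their neighbours, the 3 genes most like each, the lens markers in the table, and from each list up to 4 of the smallest adjusted p between 6 days and 1 day, or its most abundant gene; some of these are not reported here. Members, lists and tests were chosen with earlier results of these data known. Alternatives were other pseudocounts (0.05 and 2.5), filters, scalings, covariates, robust variance, the compared ages alone and each library left out; W-linked libraries alone, overlapping genes and the relations with the scaling factor were added after seeing the data.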

Additional observations from a re-analysis of the deposited data

Results flagged for a closer look

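Some values of the crystallins near 0 stood apart within an age. A library was marked where its gap to the nearest of the other 6, divided by the range, passed Dixon's critical value for 7 samples, which chance passes in about 1 of 20 groups of continuous values. That rate does not hold for these counts, since in a gene at 0 elsewhere any single library with a read is marked by construction, as in 3 of the 4 cases below. CRYAA was 0.0581 CPM, or 2 reads, in the 1-day library C21R and 0 in the other 6. CRYBB1 was 0.116 CPM, or 4 reads, in the same library, with a gap of 0.734 of the range. CRYAA was 0.0263 CPM in the 3-day library C34L and CRYBB3 was 0.0258 CPM in the 6-day library C62L, 1 read each, with 0 in the other 6. These values rest on 1 to 4 reads, and their sources were not tested.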

How the results depend on the processing

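No paired analysis was possible because the numbers in the titles differ between all groups. Counts of crystallins past the threshold stayed at 0 between 6 days and 1 day under every alternative run. Between 3 days and 1 day the count was 1 under median-of-ratios scaling and 1 under quantile normalization; between 6 and 3 days it was 1 under median-of-ratios scaling and 1 with HINTW as a covariate, and 0 to 1 with each library left out; for any difference between ages it was 1 under median-of-ratios scaling and 0 to 1 with each library left out. Relations past the threshold were 0 of 45 under median-of-ratios and quantile scaling, and 0 to 1 with each library left out. With a pseudocount of 2.5 the SD within ages was 0.12 for CRYAB, 0.11 for CRYBA1 and 0.15 for CRYGN, as a larger pseudocount shrinks low genes; with each library left out it was 0.22 to 0.26, 0.22 to 0.25 and 0.24 to 0.30, and 0.14 to 0.17 for CRYBA4.

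Differences near 0 changed sign. CRYBA4 between 6 days and 1 day was -0.12 (median-of-ratios), -0.13 (quantile) and -0.04 (HINTW covariate), and 0.00 to 0.07 with each library left out. CRYAB between 6 and 3 days was 0.00 (pseudocount 0.05), -0.05 (median-of-ratios) and -0.02 (title letter L or R), and -0.06 to 0.08 with each library left out; its ranges were -0.12 to 0.02 between 6 days and 1 day and -0.10 to 0.02 between 3 days and 1 day. CRYGN between 6 and 3 days was -0.03 (median-of-ratios) and -0.02 (W-linked libraries alone), and -0.09 to 0.10 with each library left out.

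Over all genes, calls between 6 days and 1 day numbered 2127 under median-of-ratios scaling and 2025 under quantile normalization, against 4103 as deposited. In W-linked libraries alone, which are fewer, they numbered 870, with 265 between 3 days and 1 day, 1173 between 6 and 3 days and 1630 for any difference. Between 3 days and 1 day they numbered 841 without C33R and 2150 without C42L, against 1279. A floor of 2.5 CPM left 1 crystallin tested, CRYBA4. The cause of these changes was not tested. Depth limits CRYBB2 and the crystallins near 0: 3 reads are 0.0724 to 0.108 CPM, a limit of counting error alone.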
